A study of Mus musculus with 8 samples.

Results

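Public β-chain clonotypes, T cell receptor chains that several animals make independently or hold in common, were described in 8 tumor-bearing mice, in the CD8+ T cells of the host (endogenous, en-T). A clonotype was a CDR3 amino acid sequence with its V and J segment, and its reads were summed per mouse. Members were selected on presence alone, with at least 1 read in 4 or more of the 8 mice, so the number of mice and the reads that gave presence are a description. The rule kept 124 of 56147 β clonotypes (0.221%), which held 1201 of 80000 reads (1.50%).

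All mice were C57BL/6 females of 6 to 8 weeks that received B16-F10 melanoma cells on day 0, the lymphodepleting drug cyclophosphamide (CTX) at 300 mg/kg on day 3, and CD8+ T cells of Thy1.1 Pmel-1 transgenic mice, whose receptor recognizes the melanoma antigen gp100, on day 5. Recombinant human IL-2 at 10000 IU was given daily for 3 days from day 5. The 3 CTXpre mice received nothing further, and the 5 CTXpre/CD4post mice received 200 µg of the anti-CD4 antibody GK1.5 weekly for 3 weeks from day 10. On day 25, Thy1.1- CD8+ cells were sorted from inguinal lymph nodes and spleen together, and each mouse gave 1 β-chain library of 10000 reads. Libraries of receptor chains hold no marker genes, so the sorted cell type could not be checked against them. The methods state a range of lymphocytes for RNA extraction and a fixed amount of RNA per sample, the number of cells of each mouse is not given in the sources used here, and fewer cells of a clone cannot be told apart from less receptor RNA per cell.

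A β chain is made by joining a D segment to a J segment and a V segment to that product, while nucleases trim the ends and terminal transferase adds bases that no segment encodes. The CDR3, which spans the joint and contacts the peptide, runs from a conserved cysteine at the end of V to a conserved phenylalanine in J. TRBD1 lies before both J clusters and can join TRBJ1 or TRBJ2, whereas TRBD2 lies between them and normally joins TRBJ2. A sequence that needs few added bases, or that many nucleotide sequences encode, is known to recur in unrelated animals.

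The β locus lies on chromosome 6, and the segments are given here on GRCm38 with the annotation of GENCODE vM21. TRBV13-1 spans chr6:41116007-41116468, TRBV13-3 chr6:41130147-41130585 and TRBV12-1 chr6:41113550-41114067, all annotated as V genes on the plus strand. TRBJ2-7, the most frequent J segment of members, spans chr6:41543810-41543856, and TRBJ1-2 spans chr6:41534001-41534048. The germline parts that these segments can give to a CDR3 are shown first, because the members are described against them. The CDR3 parts of TRBV13-1 and TRBV13-3 were identical, as were those of TRBV12-1 and TRBV12-2, so the assignment among these V segments rests on bases outside the CDR3 and is uncertain.
TRBV13-1 and TRBV13-3, from the cysteine codon to the end: tgtgccagcagtgatg
TRBV13-2, from the cysteine codon to the end: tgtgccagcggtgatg
TRBV12-1, from the cysteine codon to the end: tgtgccagctctctc
TRBD1, chr6:41533201-41533212: gggacagggggc
TRBD2, chr6:41542163-41542176: gggactgggggggc
TRBJ2-7, from the start to the phenylalanine codon: ctcctatgaacagtacttc
TRBJ1-2, from the start to the phenylalanine codon: caaactccgactacaccttc

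Member sequences are shown as deposited, with capitals for the bases between the stretch that matches the germline V exactly and the stretch that matches the germline J exactly. The first set holds forms that V and J alone encode, or nearly so.
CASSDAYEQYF, TRBV13-1 and TRBJ2-7, the form in 4 mice: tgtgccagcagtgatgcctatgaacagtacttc
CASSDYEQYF, TRBV13-1 and TRBJ2-7, the form in 4 mice: tgtgccagcagtgactatgaacagtacttc
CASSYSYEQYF, TRBV4 and TRBJ2-7, the form in 4 mice: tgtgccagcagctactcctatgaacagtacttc
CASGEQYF, TRBV13-2 and TRBJ2-7, the form in 4 mice: tgtgccagcggtgaacagtacttc
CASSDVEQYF, TRBV13-1 and TRBJ2-7, the form in 5 mice: tgtgccagcagtgatgTtgaacagtacttc
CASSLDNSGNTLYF, TRBV16 and TRBJ1-3, the form in 5 mice: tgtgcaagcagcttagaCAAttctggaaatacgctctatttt

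The second set holds both clonotypes that kept 1 nucleotide sequence across 7 or 8 mice.
TRBV14 and TRBJ1-6, 15 residues, 8 mice: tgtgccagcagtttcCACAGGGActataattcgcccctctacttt
YAEQFF, TRBV21 and TRBJ2-1, 7 mice: tatgctgagcagttcttc

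The third set shows amino acid sequences reached by different nucleotide sequences. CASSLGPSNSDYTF joins TRBV12-1 to TRBJ1-2, and each of its forms was found in a single mouse. Both mice with the TRBD1 form shown for the TRBV13-1–TRBJ2-7 clonotype also held the TRBD2 form shown.
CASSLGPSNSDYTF, 22 reads in CTXpre/CD4post 5: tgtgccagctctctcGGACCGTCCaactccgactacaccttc
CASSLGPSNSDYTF, 16 reads in CTXpre/CD4post 5: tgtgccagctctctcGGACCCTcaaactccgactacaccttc
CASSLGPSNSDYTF, 8 reads in CTXpre/CD4post 4: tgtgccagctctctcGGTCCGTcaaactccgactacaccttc
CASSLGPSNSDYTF, 8 reads in CTXpre/CD4post 4: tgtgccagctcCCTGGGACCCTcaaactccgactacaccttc
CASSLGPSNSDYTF, 4 reads in CTXpre/CD4post 3: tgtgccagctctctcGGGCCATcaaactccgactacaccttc
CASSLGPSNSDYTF, 1 read in CTXpre/CD4post 2: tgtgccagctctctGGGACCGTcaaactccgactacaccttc
TRBV13-1 and TRBJ2-7, 14 residues, a form with TRBD1 in 2 mice: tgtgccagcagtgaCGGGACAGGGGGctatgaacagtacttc
TRBV13-1 and TRBJ2-7, 14 residues, a form with TRBD2 in 3 mice: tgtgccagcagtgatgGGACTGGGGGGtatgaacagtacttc

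Before the members are described, the libraries were compared with each other. CTXpre/CD4post mice 1 and 2 both held 148 of the nucleotide sequences (with V and J), and any other pair of mice, of 27, held 20 to 52 together, with a median of 38. In members the pair did not stand apart: it held 33 members together, the other pairs 24 to 47, and 10 nucleotide sequences of members, the other pairs 6 to 19. When each sequence held by both mice was counted only in the mouse with more reads, 119 of the 124 members remained and 5 did not reach 4 mice. The values below use all reads, and those with the shared sequences counted once are given beside the counts of members.

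Most members sat just at the threshold and at low counts. Of the 124, 88 were found in 4 mice, 21 in 5, 10 in 6, 4 in 7 and 1 in all 8, while 335 clonotypes were found in 3 mice, 2258 in 2 and 53430 in 1. A member was found in a mouse 553 times in all, and 345 of these findings (62.4%) were single reads, against 82.8% of findings of the other clonotypes. Of the members, 76 had at most 2 reads in every mouse and 5 reached 10 or more reads in some mouse. Only 8 clonotypes had 2 or more reads in 4 or more mice, and 3 had 3 or more, so membership of most of the list rests on single reads. Just outside the rule, in 3 mice, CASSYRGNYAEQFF (TRBV4, TRBJ2-1) had 37 reads, 32 of them in CTXpre/CD4post 1, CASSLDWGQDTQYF (TRBV4, TRBJ2-5) had 24 and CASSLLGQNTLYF (TRBV16, TRBJ2-4) had 20.

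The members that were in 7 or 8 mice had unlike levels. The TRBV14–TRBJ1-6 clonotype of 15 residues had 46, 3 and 28 reads in CTXpre mice 1 to 3 and 23, 51, 18, 23 and 28 reads in CTXpre/CD4post mice 1 to 5, which was 220 of the 1201 reads of members. CTXpre 2 was far below the other mice, and the groups overlapped. All its reads had the single nucleotide sequence shown above, with 2 bases assigned to no segment. TRBV14 encodes Vβ13, the V segment of the transgenic Pmel-1 β chain, the transferred cells carried Thy1.1 and the sort kept Thy1.1- cells. Whether any of these reads came from transferred cells was not tested.

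YAEQFF, assigned to TRBV21 and TRBJ2-1, was the 1 member without the conserved cysteine. It had 9, 4 and 5 reads in CTXpre mice and 0, 9, 5, 8 and 6 reads in CTXpre/CD4post mice. Its only nucleotide sequence lies wholly within the germline TRBJ2-1, so no base of it needed a V segment. The remaining members in 7 mice were close to 1 read per mouse. The TRBV13-1–TRBJ2-7 clonotype of 14 residues had 2, 0 and 1 reads in CTXpre mice and 3, 1, 2, 1 and 2 reads in CTXpre/CD4post mice. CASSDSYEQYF (TRBV13-1, TRBJ2-7) had 1, 2 and 2 against 0, 1, 2, 1 and 2 reads. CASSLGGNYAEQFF (TRBV12-1, TRBJ2-1) had 2, 1 and 2 against 0, 1, 1, 2 and 1 reads. None of these 3 separated the groups, and at 10000 reads per library an absence allows a share of up to 0.03%.

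The members with the highest counts in a single mouse were mostly found in exactly 4 mice. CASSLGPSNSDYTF had 0 reads in all 3 CTXpre mice and 0, 2, 4, 18 and 43 reads in CTXpre/CD4post mice 1 to 5. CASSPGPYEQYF (TRBV12-1, TRBJ2-7) had 0, 0 and 3 against 0, 0, 4, 3 and 25 reads. The TRBV1–TRBJ1-4 clonotype of 15 residues had 1, 0 and 0 against 1, 0, 1, 0 and 20 reads. In these 3 clonotypes CTXpre/CD4post 5 held the highest count and the lower values of both groups overlapped. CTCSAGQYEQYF (TRBV1, TRBJ2-7) had 1, 1 and 0 against 0, 15, 0, 0 and 6 reads, and both of its high counts had the same nucleotide sequence, which TRBV1, TRBD1 and TRBJ2-7 encode without an unassigned base. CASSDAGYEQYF (TRBV13-1, TRBJ2-7), in 6 mice, had 1, 3 and 5 against 1, 1, 2, 0 and 0 reads in 8 nucleotide forms.

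**Figure D1:**
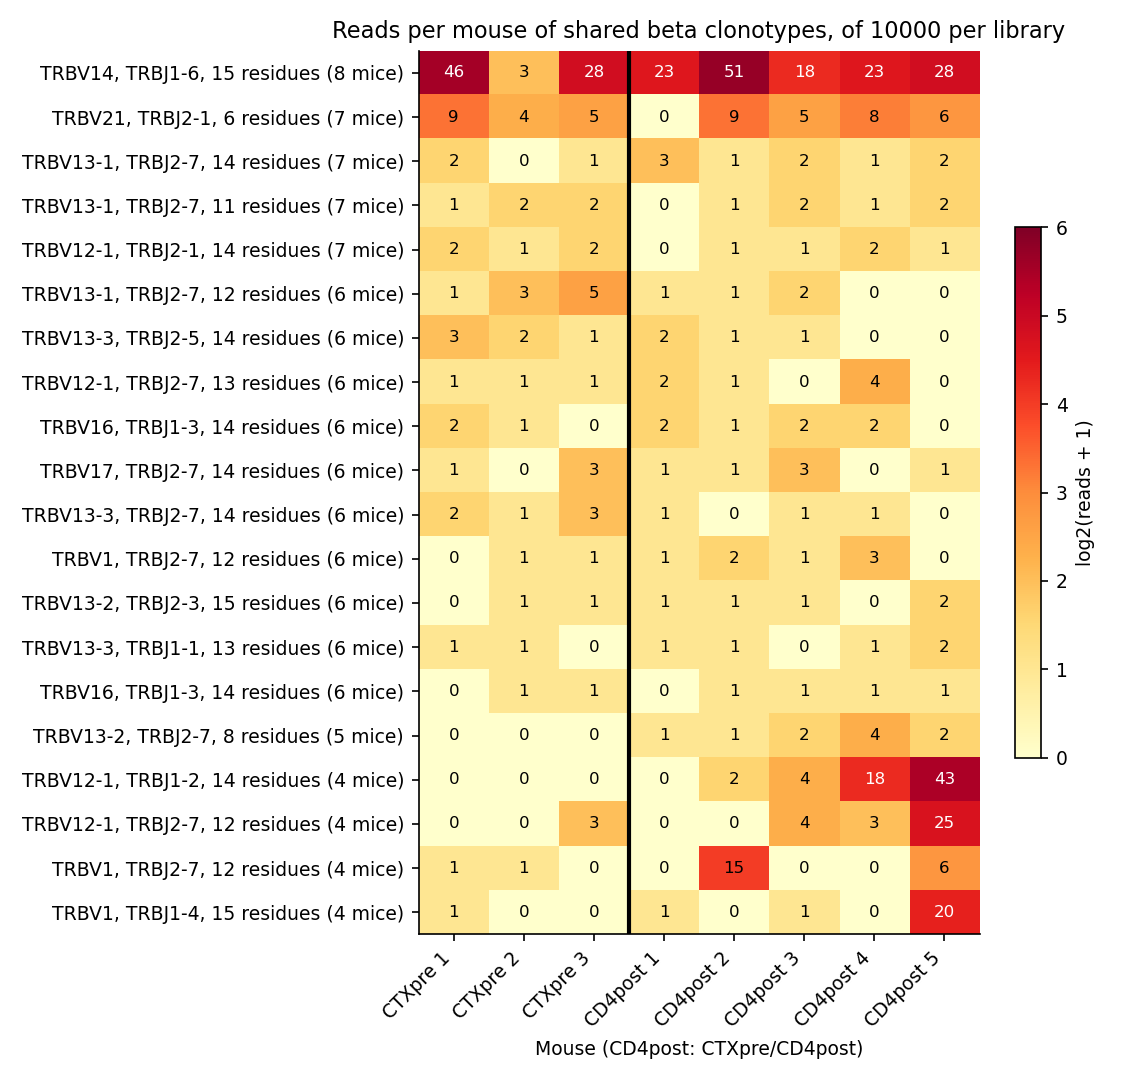
Reads per mouse (columns, 3 CTXpre and 5 CTXpre/CD4post mice, 10000 reads per library) of members in 6 or more mice, of members with 10 or more reads in a mouse and of the 8-residue TRBV13-2–TRBJ2-7 clonotype, named by V, J and CDR3 length. Numbers are reads and color is log2(reads + 1); the TRBV14–TRBJ1-6 clonotype has 3 to 51 reads in all 8 mice, while most other cells hold 0 to 3.

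No library held the whole list. CTXpre mice had 69, 74 and 76 members and CTXpre/CD4post mice 57, 71, 77, 68 and 61, with means of 73 ± 3.61 (SD, n = 3) and 66.8 ± 7.95 (SD, n = 5). The difference (CTXpre/CD4post minus CTXpre) of -6.2 members was within the spread between mice. With a mouse left out and 4 of the other 7 needed, it was -4.8, -0.4 and 2.4 without CTXpre 1, 2 and 3. It was -2.08, -6.5, -4.58, -3.33 and -3.67 without CTXpre/CD4post 1 to 5. The libraries differed in the number of clonotypes, 8074 ± 318 in CTXpre and 7056 ± 955 in CTXpre/CD4post. As a share of the library's clonotypes, members made up 0.905% ± 0.0572 in CTXpre and 0.954% ± 0.112 in CTXpre/CD4post mice, which turned the direction of the difference. With the sequences shared by CTXpre/CD4post mice 1 and 2 counted once, the difference in members found was -8.53.

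Members held 159, 112 and 151 reads in CTXpre mice and 115, 169, 136, 150 and 209 reads in CTXpre/CD4post mice. These were 1.41% ± 0.251 and 1.56% ± 0.357 of the library, and the ranges overlapped. A library with 112 reads of 10000 has a Wilson 95% interval of 0.932% to 1.35%, and one with 209 reads an interval of 1.83% to 2.39%; intervals cover counting error only, since the reads carried no molecular identifiers. Without the TRBV14–TRBJ1-6 clonotype the members held 113, 109 and 123 against 92, 118, 118, 127 and 181 reads. No p is given for a sum over chosen members.

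**Figure D2:**
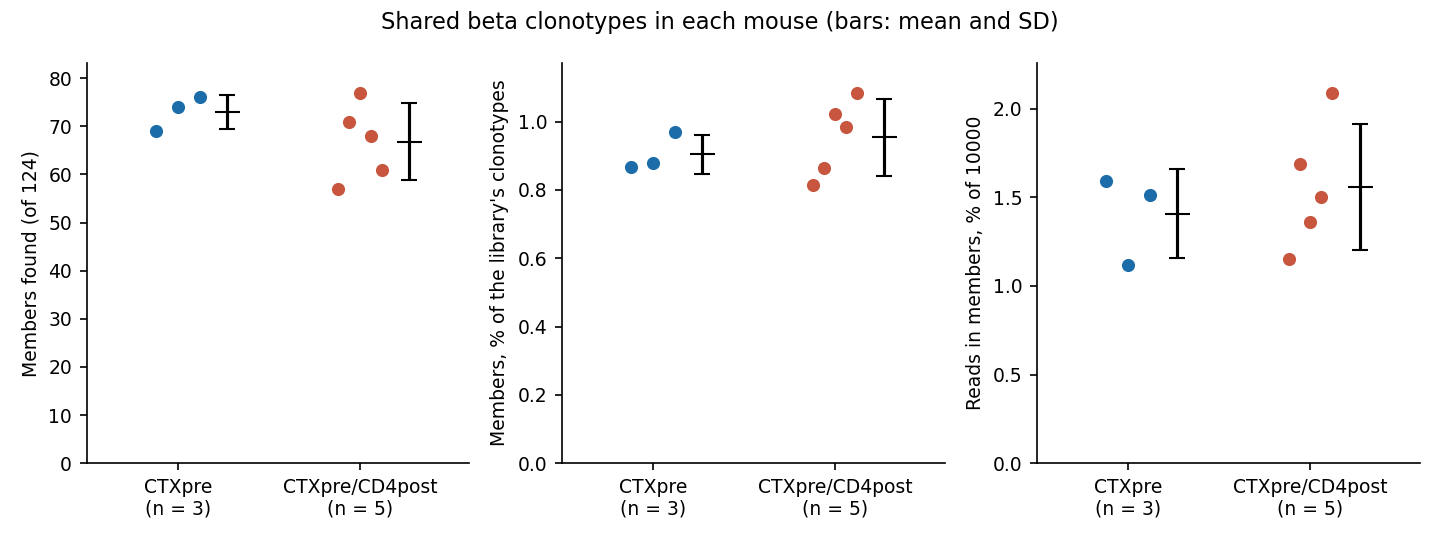
Members found in each mouse, members as percent of the library's clonotypes and percent of the 10000 reads in members, with 1 point per mouse and the mean with SD beside them. The groups overlap in all 3 panels, and CTXpre/CD4post 5 has the highest share of reads, 2.09%.

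Of the 124 members, 116 were found in both groups and 8 in CTXpre/CD4post mice alone. With 3 CTXpre mice the rule could not select a member found in that group alone, so these counts say nothing of a preference. The most common pattern was 2 CTXpre and 2 CTXpre/CD4post mice (43 members), followed by 1 and 3 (28) and 2 and 3 (13). The 8 were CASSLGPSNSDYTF, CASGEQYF, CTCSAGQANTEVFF and another TRBV1–TRBJ1-1 clonotype of 14 residues, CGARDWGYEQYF (TRBV20, TRBJ2-7), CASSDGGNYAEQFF and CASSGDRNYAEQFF (both TRBV13-1, TRBJ2-1) and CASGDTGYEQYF (TRBV13-2, TRBJ2-7).

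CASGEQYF, at 8 residues the shortest member with both conserved ends, had 0 reads in all CTXpre mice and 1, 1, 2, 4 and 2 reads in CTXpre/CD4post mice. It was the only member whose groups did not overlap, and 1 of the 459 clonotypes found in 3 or more mice (0.218%) was higher in every CTXpre/CD4post mouse. Only the 36 clonotypes in 5 or more mice could be higher in all 5 of these mice, so that share is set by the number of mice. In the other direction, which needs only 3 mice, 9 of 459 (1.96%) were higher in every CTXpre mouse, none of them a member, since each was found in exactly 3 mice. All these values were a few reads.

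Between the groups, 0 of 290 clonotypes with 10 or more reads (0%) were called by edgeR's quasi-likelihood test at a Benjamini-Hochberg adjusted p under 0.05. The test ran over all clonotypes at this depth, 23 of them members, and no member was called; since members were chosen on reads of the same mice, nothing about them is read from it. At an unadjusted p under 0.05 there were 11 clonotypes, none a member, and DESeq2 called 0, with 5 at an unadjusted p under 0.05. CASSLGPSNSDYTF had a mean of 0 in CTXpre and 13.4 ± 18.0 reads in CTXpre/CD4post mice (n = 5), and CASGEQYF 0 and 2.00 ± 1.22 reads. Both met the rule through CTXpre/CD4post mice alone, so no p is given for them. The TRBV14–TRBJ1-6 clonotype had 25.7 ± 21.6 (n = 3) and 28.6 ± 13.01 reads (n = 5), a difference smaller than the SD of either group.

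The nucleotide sequences behind the members were mostly private. The 124 members were encoded by 450 nucleotide forms, with a median of 3.5 and at most 10 per member, and 319 forms (70.9%) were found in 1 mouse only. Of the 131 forms in more than 1 mouse, 87 were found in both groups, 11 in CTXpre and 33 in CTXpre/CD4post mice alone. The CTXpre/CD4post group has more mice, and so more pairs of mice that can share a form. The counts of forms in a single group were not set against other shared sequences and say nothing of a preference. A member had more than 1 form within the same mouse in 83 of 553 findings (15.01%), up to 4 forms in a mouse, and 59 members did so in some mouse. For 27 members no form was found in more than 1 mouse, and for 16 a single form was found in 4 or more mice, so that these 16 would be public by nucleotide sequence as well.

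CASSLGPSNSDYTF had the most forms, 10, and none was shared between mice: 2 forms in CTXpre/CD4post 2, 1 in mouse 3, 4 in mouse 4 and 3 in mouse 5. In its forms shown above the V and J ends are nearly constant and the capital bases between them vary while encoding the same residues. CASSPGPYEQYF had 5 forms, again each in a single mouse. At the other end 8 members had 1 form: the TRBV14–TRBJ1-6 and TRBV21–TRBJ2-1 clonotypes, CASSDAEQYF, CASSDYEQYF, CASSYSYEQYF, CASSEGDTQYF (TRBV13-3, TRBJ2-5), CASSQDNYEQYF (TRBV5, TRBJ2-7) and a TRBV13-1–TRBJ2-1 clonotype of 15 residues. The last 6 of these were found in 4 mice and had 4 to 7 reads in all.

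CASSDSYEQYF with TRBV13-1 is an example in which 2 forms fell to separate groups. It is not typical, since 87 of the 131 forms in more than 1 mouse were found in both groups. A form with 3 bases between V and J was found in all 3 CTXpre mice and in no other, and a form made of V and J end to end was found in CTXpre/CD4post mice 3, 4 and 5. Each was a single read or a pair of reads per mouse, and no test was made of this split. The forms of these 2 kinds are given for comparison.
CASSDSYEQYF, TRBV13-1 and TRBJ2-7, CTXpre mice 1 to 3: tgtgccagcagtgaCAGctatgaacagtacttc
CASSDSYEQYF, TRBV13-1 and TRBJ2-7, CTXpre/CD4post mice 3 to 5: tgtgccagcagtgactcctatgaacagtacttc

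Members came from 16 of the 24 V segments seen, and use was concentrated in a few. TRBV13-1 gave 27 of the 124 (21.8%, against 9.90% of the other clonotypes), TRBV13-3 gave 23 (18.5% against 10.5%), TRBV12-1 gave 16 (12.9% against 7.32%), TRBV16 gave 15 (12.1% against 10.3%) and TRBV13-2 gave 14 (11.3% against 5.87%). TRBV13, the Vβ8 family, thus made up 64 of the 124 members. TRBV14 gave 2 members (1.61% against 4.59%), and 8 V segments gave none, among them TRBV19 and TRBV15 with 4.38% and 2.64% of the other clonotypes. In each of the 8 mice the share of TRBV13-1, TRBV13-2, TRBV13-3 and TRBV12-1 among nucleotide sequences was higher in members, and that of TRBV14 was lower. For TRBV13-2 in CTXpre/CD4post 4 it was 6.25% against 5.98%. V and J define a member and the mice hold the same members, so shares per mouse are a description.

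Among J segments TRBJ2-7 gave 57 members (46.0% against 21.0%), followed by TRBJ2-5 with 18 (14.5% against 11.8%), TRBJ1-1 with 13 (10.5% against 9.71%), TRBJ2-1 with 10 (8.06% against 13.5%), TRBJ1-2 with 9 (7.26% against 5.28%) and TRBJ2-4 with 7 (5.65% against 8.93%). TRBJ1-3 gave 4, TRBJ2-3 gave 3, and TRBJ1-4, TRBJ1-6 and TRBJ2-2 gave 1 each. TRBJ1-5 gave none although 2.39% of the other clonotypes used it. The share of TRBJ2-7 was 40.6% to 58.2% of the nucleotide sequences of members in a mouse and 20.5% to 22.3% of the others, with no overlap. These shares too are a description. The commonest pairs were TRBV13-3 with TRBJ2-7 (13 members of 1217 such clonotypes, 1.07%), TRBV13-1 with TRBJ2-7 (12 of 1138, 1.05%) and TRBV12-1 with TRBJ2-7 (10 of 962, 1.04%). By rate, 5 pairs were above these: TRBV21 with TRBJ2-1 (1 of 5, 20%), TRBV1 with TRBJ1-1 (5 of 259, 1.93%), TRBV14 with TRBJ1-6 (1 of 63, 1.59%), TRBV16 with TRBJ1-3 (4 of 255, 1.57%) and TRBV13-2 with TRBJ1-2 (3 of 197, 1.52%). The first and the third rest on the single members in 7 and 8 mice described above.

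**Figure D3:**
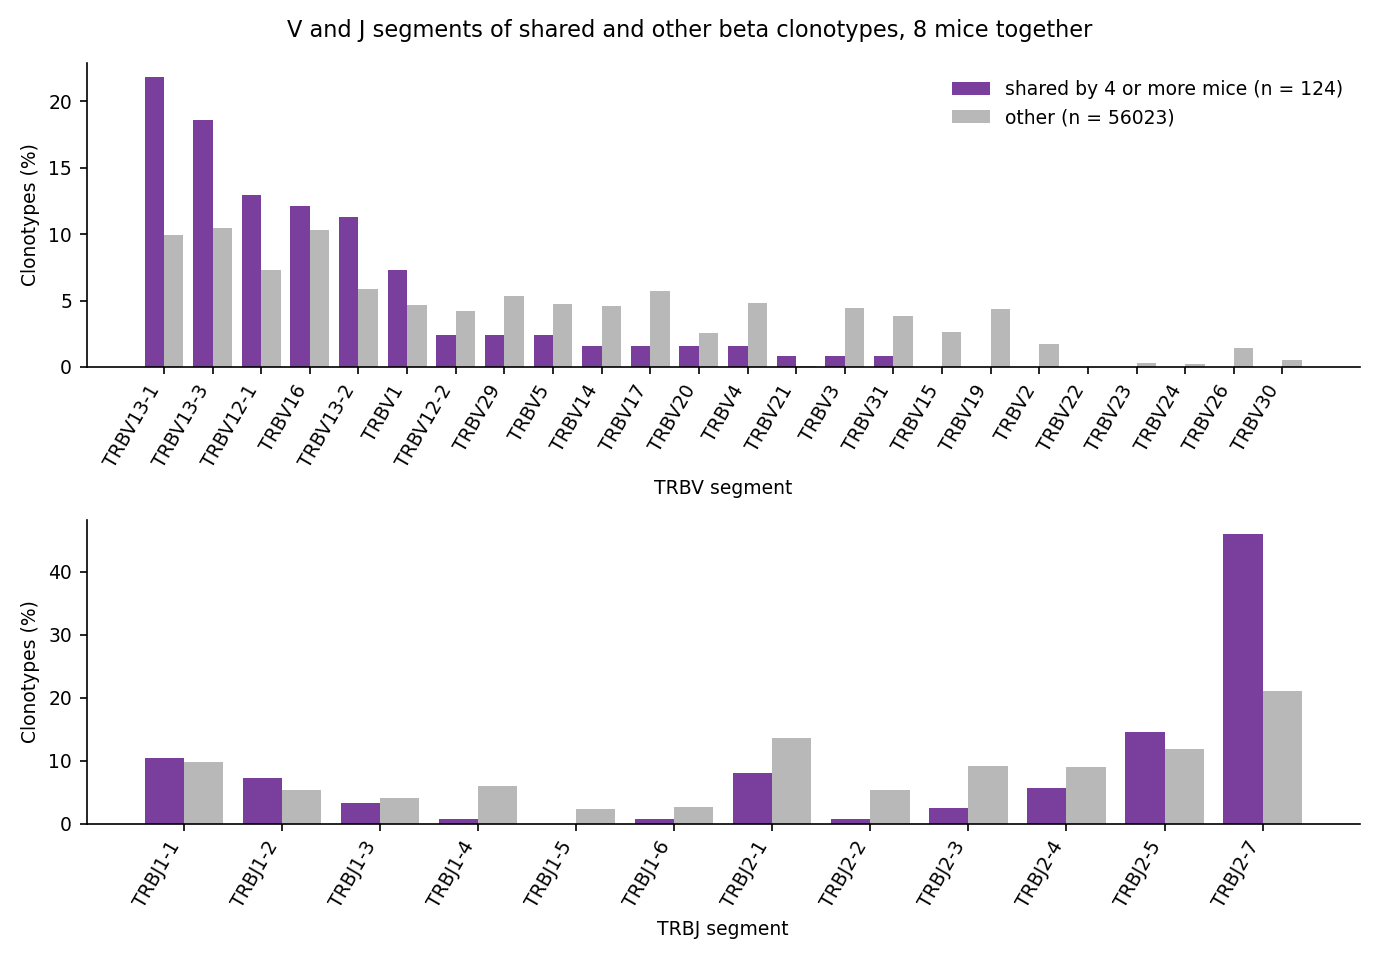
Percent of clonotypes with each TRBV (upper) and TRBJ segment (lower), for the 124 members and all other β clonotypes of the 8 mice together. TRBJ2-7 is used by 46.0% of members against 21.0% of the others, and TRBV13-1 by 21.8% against 9.90%.

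A D segment was assigned less often in members. Nucleotide sequences were counted once in each mouse that held them. Of those of members, 127 (19.4%) had TRBD1, 213 (32.6%) had TRBD2 and 314 (48.0%) had none, against 40.4%, 32.5% and 27.1% of the others. With TRBJ1, none was assigned in 61.7% against 35.5%, and TRBD1 in 36.9% against 58.8%. With TRBJ2, TRBD1 was assigned in 14.3% against 32.5%, and TRBD2 in 41.8% against 43.9%. D residues still marked part of the list: DWG, a reading of TRBD2, was in 16 members (12.9%) against 5.45% of the other clonotypes, and GTGG, which both D segments can encode, was in 9 (7.26%) against 2.29%. GLG, from another frame of TRBD2, was in 1 member (0.806% against 3.48%). These motifs were chosen after the members were seen, and the shares are a description.

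The joins were then compared within each mouse by 6 measures, none of which set a threshold in the rule. The CDR3 residues, V and J were part of the definition of a clonotype, so CDR3 length and the TRBV13 and TRBJ2 measures are given as a description with no p, and unassigned nucleotides, sequences with no unassigned base and sequences with no D were tested. Each nucleotide sequence of a library counted once, members against all other clonotypes. The 8 differences per mouse were run through an exact two-sided sign-flip permutation test. The Benjamini-Hochberg adjustment was made over all 6 measures, and p is read only for the 3 tested ones. For 8 mice the smallest p of this exact test is 0.00781, and the 3 tested measures reached it (exact p = 0.00781, adjusted p = 0.00781). All 6 measures differed in the same direction in 8 of 8 mice. The mice hold the same members, so the 8 differences are not independent and these p-values cover the spread between mice only. Unassigned bases and the D call also depend in part on the CDR3, V and J that define a member. No conclusion about members is drawn from these p-values.

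Members had fewer bases that no segment encodes. Their mean number of unassigned nucleotides was 1.53 ± 0.234 (SD, n = 8 mice) against 3.01 ± 0.0453 in the other clonotypes, and the values per mouse ran from 1.14 to 1.81 and from 2.92 to 3.06. No base was unassigned in 40.9% ± 3.18 against 15.7% ± 0.450, and when 2 reads per mouse were needed, which left 8 members, this difference was 18.1 percentage points and missed the threshold (adjusted p = 0.0586 in the exact permutation test, n = 8). The most unassigned bases in a member was 8 among 654 sequences, against 33 among 59477 others, each counted once per mouse. A maximum can rise with the number of sequences, so these 2 values are not compared further. No D was assigned in 47.9% ± 4.26 of sequences of members against 27.1% ± 0.372. This difference of 20.8 percentage points was 9.90 with clonotypes defined by the CDR3 alone and 50.7 with clonotypes defined by nucleotide sequence. The deposited assignment counts as part of a segment the palindromic bases that form when its hairpin end is opened. There were 647 member sequences with both conserved ends, each counted once per mouse. The V part matched the plain germline in 68.3% of them and needed its palindrome in 23.0%. With exact germline bases only, an alternative chosen after seeing the data, unassigned bases were 2.09 ± 0.215 against 4.33 ± 0.0472, and no D of 5 or more bases was found in 40.5% against 24.3%.

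Counted from the germline ends, V gave a mean of 14.6 and J 17.5 bases to the member sequences, and 6.61 bases lay between them, against 13.5, 18.1 and 10.2 in the other clonotypes. V and J alone, with no base between, made up 25 of 647 member sequences, counted once per mouse (3.86%), against 0.450% of the others. Such a form was found for 8 members, and 5 of these reached 4 mice by such forms alone: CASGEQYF, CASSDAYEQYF, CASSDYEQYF, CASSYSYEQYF and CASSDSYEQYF (TRBV13-1). In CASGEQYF the germline V and J ends shared 3 bases, so that either could have given them.

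CDR3s of members were shorter by about 1 residue, 12.8 ± 0.146 against 13.9 ± 0.0261 residues. By clonotype, 44 members had 14 residues, 24 had 13, 19 had 12, 17 had 11, 9 had 15 and 8 had 10, and single members had 6, 8 and 16. CDR3s of 12 or fewer residues were 37.1% of members and 16.6% of the other clonotypes. Within CDR3s of 13 residues members still had fewer unassigned bases, by 1.76 (adjusted p = 0.0234 in the same exact permutation test, n = 8), whereas the difference in sequences without D was 1.24 percentage points (adjusted p = 0.984).

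TRBV13 segments were in 49.8% ± 5.38 of sequences of members against 26.6% ± 1.07, and TRBJ2 segments in 77.0% ± 3.66 against 70.1% ± 1.20. Both segment results depended on the settings. With clonotypes defined by the CDR3 alone, without V and J, 613 were found in 4 or more mice and the TRBV13 difference turned from 23.3 to -3.58 percentage points, and it fell to 4.72 when 2 reads per mouse were needed. For TRBJ2 the difference turned from 6.91 to -8.67 when 2 reads per mouse were needed and to -9.32 within CDR3s of 13 residues, and it was 0.603 with clonotypes defined by nucleotide sequence and 4.43 without CTXpre 3.

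**Figure D4:**
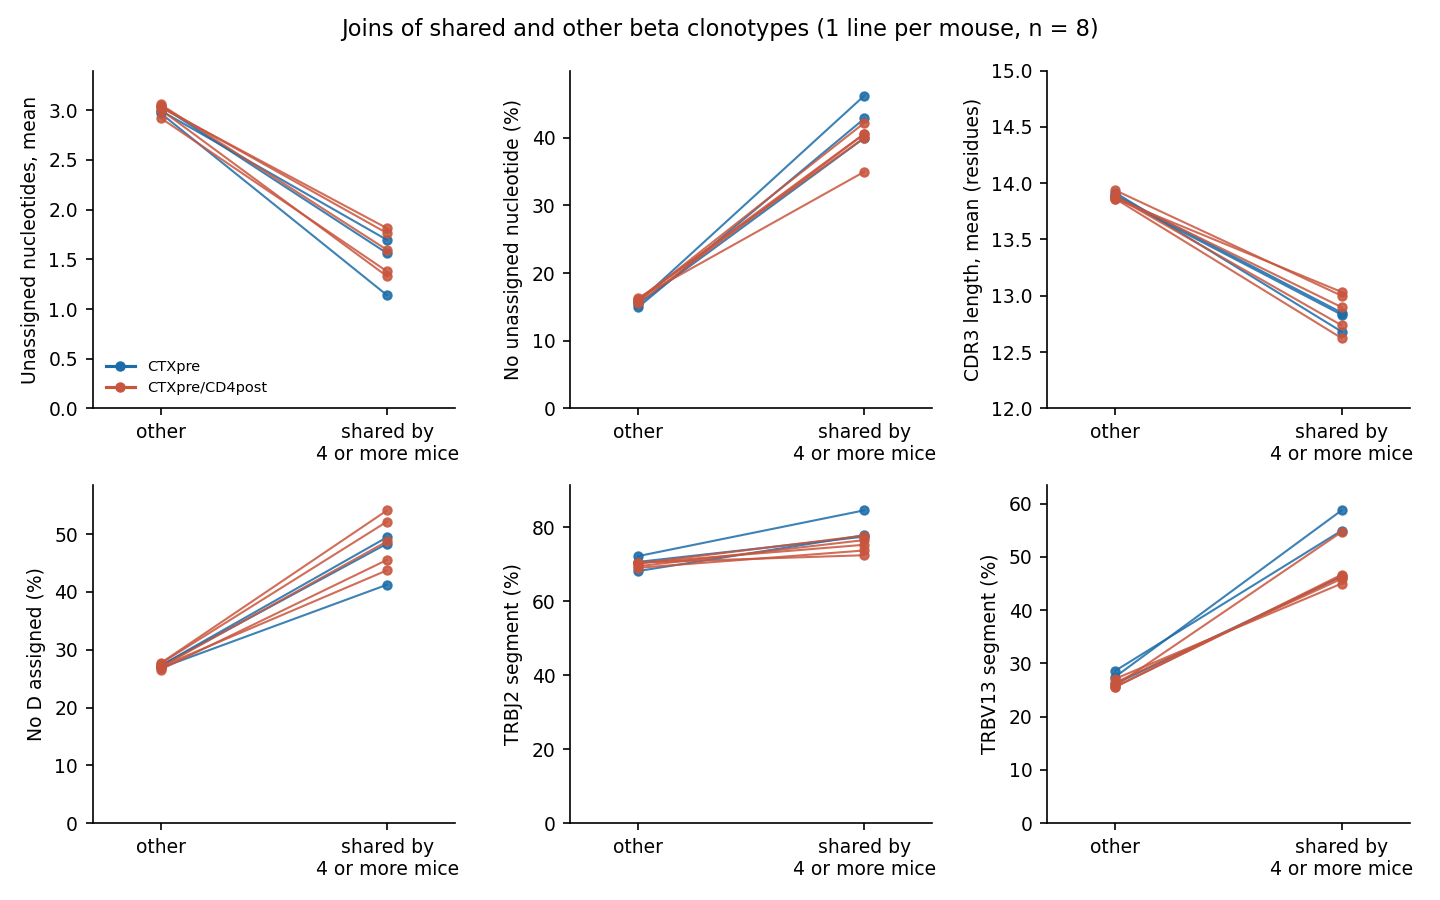
The 6 join measures in members and in other clonotypes of the same library, each line 1 mouse (n = 8), colored by group. All 8 lines run the same way in every panel, with 1.14 to 1.81 unassigned nucleotides in members and 2.92 to 3.06 in the others; the CDR3 length axis starts at 12 residues.

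By group, unassigned nucleotides of members were 1.46 ± 0.291 in CTXpre (n = 3) and 1.57 ± 0.219 in CTXpre/CD4post mice (n = 5), length 12.8 ± 0.0925 and 12.9 ± 0.175 residues, and the TRBV13 share 53.3% ± 6.37 and 47.7% ± 3.94. TRBJ2 was 80.003% ± 4.00 and 75.2% ± 2.13. Since the members were chosen over both groups together, no test was made of these differences.

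The joins also differed with the number of mice below the threshold. Mean unassigned nucleotides were 3.13 in clonotypes of 1 mouse, 1.99 in those of 2, 1.54 in those of 3, 1.68 in those of 4, 1.41 in those of 5 and 1.19 in those of 6 or more mice, so the fall lay mainly between 1 and 3 mice. Mean length went from 13.95 over 13.4, 13.2 and 12.9 to 12.5 residues in clonotypes of 5 mice and was 12.98 in those of 6 or more. The TRBV13 share was 25.9%, 32.4% and 35.3% in clonotypes of 1, 2 and 3 mice and 48.8% in those of 4. These means pool the 8 libraries and are a description.

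**Figure D5:**
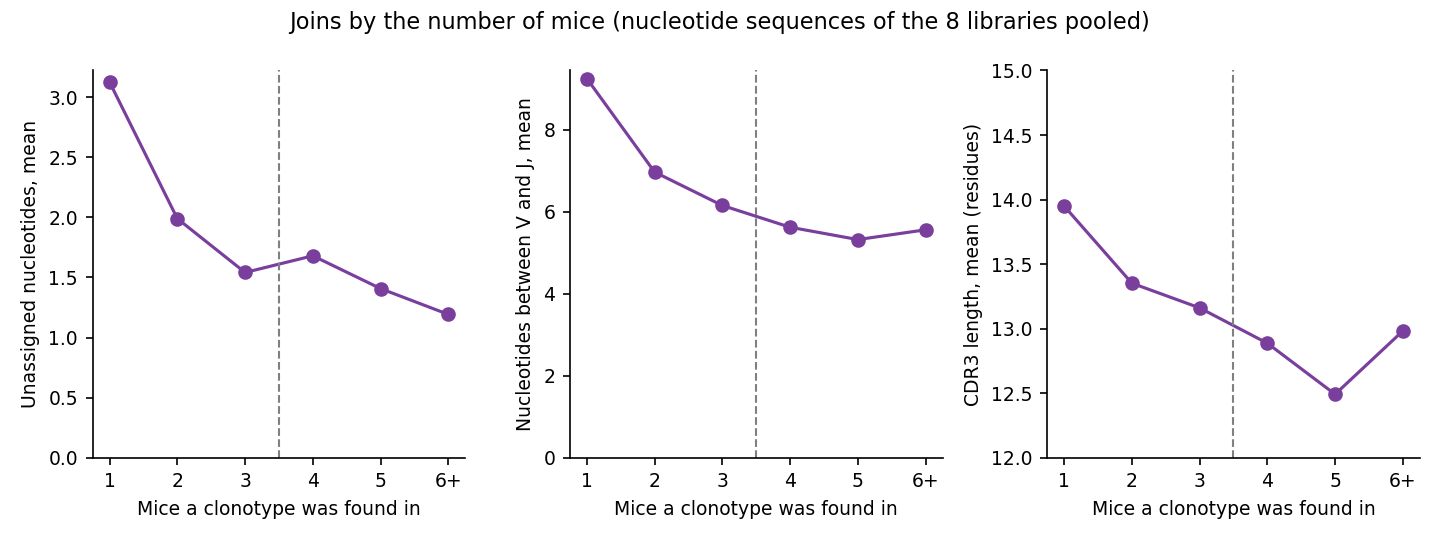
Mean unassigned nucleotides, mean nucleotides between V and J and mean CDR3 length by the number of mice a clonotype was found in, over the nucleotide sequences of the 8 libraries pooled; the dashed line is the threshold of 4 mice and the length axis starts at 12 residues. Unassigned nucleotides go from 3.13 in clonotypes of 1 mouse to 1.19 in those of 6 or more.

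Several members resembled each other. Among members with the same V, J and length, 29 pairs differed at 1 residue, and 36 members (29.0%) had such a neighbor. This share was not compared with other clonotypes of like V, J and length, so it is a description and not a trait of members. In 15 of the 29 pairs the residue was the sixth of the CDR3, counted from the conserved cysteine as the first. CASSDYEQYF (TRBV13-1, TRBJ2-7) had 4 neighbors, among them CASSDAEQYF, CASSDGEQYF and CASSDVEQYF. Of the TRBV16–TRBJ1-3 members, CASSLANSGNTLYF, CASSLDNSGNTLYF and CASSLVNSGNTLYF differed at that residue alone. Likewise 3 TRBV1–TRBJ1-1 members that start with CTCSADR, among them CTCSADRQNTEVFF, differed at the eighth residue alone. The 124 members had 117 distinct CDR3s, and all 7 CDR3s that occurred more than once were listed under both TRBV13-1 and TRBV13-3, whose CDR3 parts are identical in the germline.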

How the data were processed

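β-chain libraries of 8 mice were analyzed, 1 per mouse, with groups and replicate numbers taken from the labels. The deposited values are read counts per CDR3 nucleotide sequence. To make them, the authors amplified receptor chains in nested PCR, read them on a MiSeq instrument, trimmed adapters with Scythe and Sickle, aligned reads with MiXCR, extracted chains with VDJtools and drew 10000 reads from each library. The version of MiXCR is not given in the sources used here. The submitters' processing notes name bcl2fastq and the build mm10. α-chain libraries were not used here.

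Counts were summed over sequences with the same V, J and CDR3 residues, and clonotypes in 4 or more mice were kept. The members and lists were chosen with earlier results of these data known. Unassigned nucleotides were CDR3 bases outside the deposited V, D and J positions. Where no D was assigned, remnants of D may be among them. Germline segments were read from GRCm38 at the positions of GENCODE vM21. Named were members in 7 or 8 mice, those with the most reads, forms or 10 or more reads in a mouse, the top clonotypes just inside and outside the rule, and the leading segments.

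Join measures were tested by exact sign-flip permutation over mice (Python 3.11.15, numpy 2.4.6, pandas 2.3.3), and groups by edgeR 4.0.16 (R 4.3.3) at the common library size, for clonotypes with 10 or more reads, with DESeq2 1.42.0 as an alternative. Functions were tested on made-up values and the edgeR step on simulated counts. The simulation used large changes and a fixed spread not estimated from these clonotypes. It does not show what change could have been called here. The labels do not say whether mice of a group were treated or sequenced together, so batches could not be examined.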

Additional observations from a re-analysis of the deposited data

Results flagged for a closer look

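In 2 clonotypes the reads of 1 mouse lay far from those of the other CTXpre/CD4post mice. Both were named because a mouse held 10 or more of their reads, so the values are a description of that choice and no test is read from them. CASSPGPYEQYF (TRBV12-1, TRBJ2-7) had 25 reads in CTXpre/CD4post 5 against at most 4 in the other mice of the group. The TRBV1–TRBJ1-4 clonotype of 15 residues had 20 reads in the same mouse against at most 1 in the others, in 3 nucleotide forms of 12, 7 and 1 reads. The part of this library's low number of clonotypes, 5623 against 6914 to 8215 in the other mice of the group, in these values was not tested.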

How the results depend on the processing

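The number of members, 124, depended on the rule: it was 613 by CDR3 alone, 16 by nucleotide sequence with V and J, 36 with 5 or more mice, 8 with at least 2 and 3 with at least 3 reads per mouse, 123 with both conserved ends, and 72 to 92 when each mouse was left out and 4 of the other 7 were needed. The difference in members found (CTXpre/CD4post minus CTXpre, -6.2) was -30.6 by CDR3 alone, 1.4 with at least 2 reads, 0.0489 percentage points as a share of the library's clonotypes, and -6.5 to 2.4 with a mouse left out, positive without CTXpre 3. The difference in percent of reads, 0.151, stayed within 1 SD of that value under all 9 alternatives (-0.00667 to 0.225) and was -0.0392 to 0.262 with a mouse left out. The mean difference of mice with the same replicate number (replicate block) was -4.67 members and -0.00667 percent of reads. For the 3 tested measures, direction and side of the threshold were kept in 11 of 11 alternatives for unassigned nucleotides. They were kept in 10 of 11 for sequences with no unassigned base and in 9 of 10 for sequences with no D. All 3 also kept both with any mouse left out. The exceptions were sequences with no unassigned base with at least 2 reads (18.1) and no D within 13 residues (1.24). The 3 described measures are given by value only. The TRBV13 difference was -3.58 by CDR3 alone and 4.72 with at least 2 reads. For TRBJ2 it was 0.603 by nucleotide sequence, -8.67 with at least 2 reads and -9.32 within 13 residues. It was 4.43 without CTXpre 3, with a range of 4.43 to 8.61 when a mouse was left out. The causes of these changes were not tested. Unassigned bases kept direction and call, and CDR3 length its direction, in every alternative run. Counting D bases as unassigned and dropping the block on replicates 1 to 3 were chosen after seeing the data. With D bases counted as unassigned, the differences were -3.46 unassigned nucleotides and 6.68 percentage points of sequences with no unassigned base. edgeR called 0 clonotypes under every alternative and with any mouse left out, except 29 of 158, none a member, with the replicate block on replicates 1 to 3, where the fit without the block called 0. Same-numbered mice are different animals, their deviations over V–J pairs correlated by 0.0759, -0.126 and 0.111, and the numbers were not taken to pair them. Depth limits all of this: an absence from 10000 reads allows 0.03%, and at that depth most memberships rest on 1 read per mouse.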
